A study of Mus musculus with 4 samples.

Results

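The genes described are the protocadherins, the numbered cadherins and Celsr1 to Celsr3, chosen by symbol alone: every row of the deposited table that starts with Pcdh, or is Cdh followed by a number, or is Celsr1, Celsr2 or Celsr3. There were 88 of them among 18854 rows: 13 of the alpha cluster (Pcdha), 22 of the beta cluster (Pcdhb), 22 of the gamma cluster (Pcdhg), 11 non-clustered protocadherins, 17 cadherins and 3 Celsr genes. They were measured by RNA sequencing in wild-type mouse cortical neurons cultured for 15 days in vitro: 2 libraries came from neurons then given the p53 activator Nutlin-3 for 2 days, and 2 from neurons labelled DMSO, a common solvent. Nutlin-3 is a small molecule that keeps Mdm2 from binding p53 and so spares p53 from degradation. The titles name the solvent, while the treatment label of those cultures reads as untreated, and no label gives the strain or the dose. No label says either that libraries of the same group are separate cultures, so the 4 samples may hold technical repeats. The p-values of the main test rest mostly on a variance pooled over genes of similar level (98.0 prior against 2 residual degrees of freedom). That variance comes from the same 4 samples, and a gene's own spread among them weighs little. All levels are CPM, a gene's reads scaled to a common library total.

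Cadherins are adhesion proteins of the cell surface whose extracellular repeats bind calcium and, usually, the same protein on a neighbouring cell. Classical cadherins hold on to the actin skeleton through catenins and help to build synapses. The clustered protocadherins give neurons surface identities: each alpha or gamma mRNA joins 1 variable exon, picked by promoter choice with the help of CTCF and cohesin, to constant exons that the whole cluster shares, while beta genes have a single coding exon. Most isoforms are picked by chance in each cell. The C-type isoforms, at the end of the alpha and gamma clusters, are instead expressed by many neurons alike. Non-clustered protocadherins act in cell sorting, axon growth and synapse turnover, and Celsr proteins are large adhesion receptors of planar cell polarity that shape dendrites and axon tracts.

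The 4 libraries held 19065197 and 17716272 counted reads with the p53 activator, and 14584247 and 14968028 with DMSO, and the groups differed in composition. Reads on nuclear protein-coding genes made up 84.3% and 83.8% of the activator libraries, against 74.7% and 77.0% of the DMSO libraries, and mitochondrially encoded RNAs took 8.97% and 9.99% of the activator reads, against 15.6% and 14.3% of the DMSO reads. CPM shares a fixed total, and the median protein-coding gene stood at a log2 fold change of 0.09 as deposited and at -0.05 under protein-coding scaling, which gives the protein-coding part of each library 1 common total. The part of this shift in each result was not tested. Neuron markers, all 15 of which were tested, had the highest summed level of the 6 marker lists. They summed to 10715 to 10787 CPM with the activator and 9257 to 10222 CPM with DMSO. Of the 15, 9 rose and 1 fell, beside 16.9% and 16.3% of all genes. Over nuclear protein-coding genes the shares were 20.9% and 7.34%. Under protein-coding scaling 7 neuron markers rose and 3 fell, beside 4.41% and 12.8% of the genes tested there. Astrocyte markers summed to 2774 to 2803 CPM with the activator and 2411 to 2453 CPM with DMSO, with 10 of 11 listed. Oligodendrocyte lineage markers summed to 201 to 202 CPM with the activator, against 179 to 183 CPM with DMSO, with 8 of 11 listed. Progenitor markers summed to 210.1 to 218 CPM with the activator, against 218 to 228 CPM with DMSO, with all 8 listed. Within this sum Mki67 and Top2a had log2 fold changes of -0.22 and -0.30, and Vim 0.15, all without a call. Under protein-coding scaling 4 of the 8 were called lower, Mki67 and Top2a among them, beside 12.8% of the genes tested there. Microglial markers summed to 11.0 to 11.96 CPM with the activator and 11.6 to 12.3 CPM with DMSO, with 4 of 11 listed and no row for Cx3cr1 or Tmem119. Vascular and meningeal markers summed to 19.5 to 21.7 CPM with the activator, against 21.4 to 22.4 CPM with DMSO, with 7 of 11 listed and no row for Pecam1 or Cldn5. The parts of these cells in the results were not tested, and in bulk RNA fewer cells of a type and less RNA per cell cannot be told apart. Of the genes that check the treatment, Trp53, Mdm2 and Cdkn1a had no call. On this list 5 of the 15 rose, beside 16.9% of all genes and 20.9% of nuclear protein-coding genes. Plk2 and Zmat3 were among the 5 (log2 fold changes 0.32 and 0.31). Under protein-coding scaling 0 of the 15 rose and Mdm2 was called lower (-0.31), beside 4.41% and 12.8% of the genes tested there.

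All 88 genes passed the filter of at least 1 CPM in at least 2 libraries. With limma at an adjusted p under 0.05 over 16654 genes, 13 of the 88 rose with the p53 activator and 8 fell, which is 14.8% and 9.09%. Over all genes tested 16.9% were called higher and 16.3% lower, and over nuclear protein-coding genes 20.9% and 7.34%, so that the share that rose lay below both backgrounds and the share that fell between them. The groups within the 88 differed from each other in their counts. Of the 57 clustered genes 3 rose and 5 fell, with a median log2 fold change of -0.09. Of the 31 genes outside the clusters 10 rose and 3 fell, with a median of 0.17. Both activator libraries lay below both DMSO libraries for 27 of the 57 clustered genes and 5 of the 31 others, beside 30.9% of all genes tested, and above both for 10 and 18, beside 36.6%. In edgeR with TMM scaling the 13 rises and 8 falls became 8 and 11, beside 10.7% and 17.4% of all genes. Under protein-coding scaling they became 6 and 19 of 87 tested, beside 4.41% and 12.8%, so the balance of rises and falls followed the scaling. All 21 called genes kept the sign of their fold change in every alternative that gave a value.

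**Figure D1:**
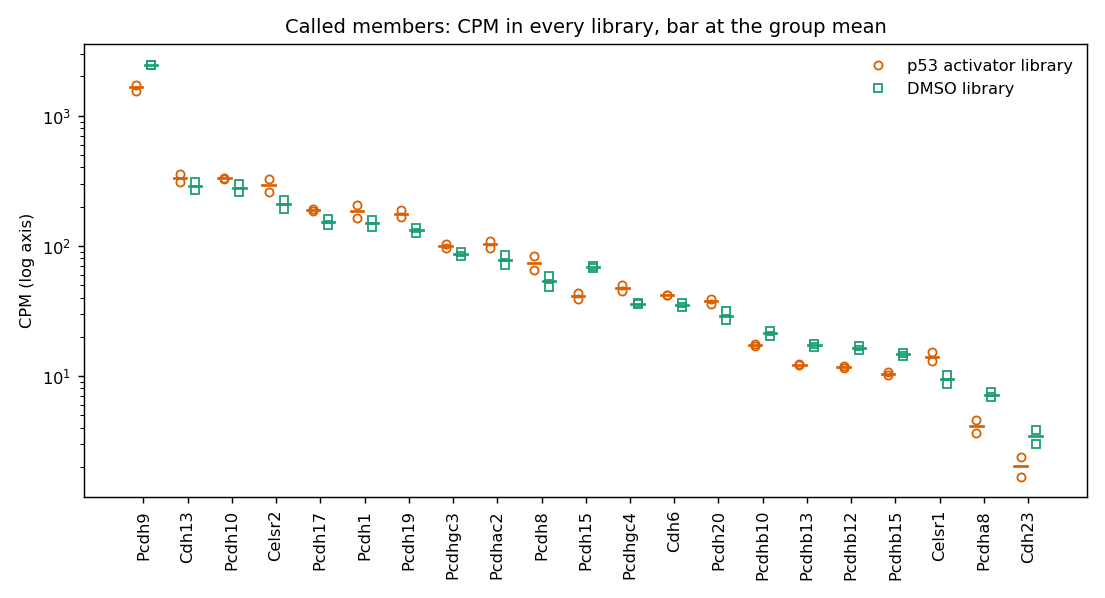
CPM of the 21 called genes in every library on a log axis, with p53 activator libraries as circles on the left of each pair, DMSO libraries as squares on the right, and a bar at each group's mean. The 2 groups are apart for each gene but Cdh13, and Pcdh9 stands highest, at 1732 and 1559.5 CPM with the activator and 2454 and 2469 CPM with DMSO.

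The 3 rises among the clustered genes were all of C-type isoforms, of which there are 5, and the 5 falls were all of alternate alpha or beta isoforms. Calls also depend on level and SE. The uncalled alternate genes Pcdha4 and Pcdhga1 had log2 fold changes of 0.46 and 0.27, above the 0.20 of the called Pcdhgc3. Their levels were lower and their SEs larger (0.20 and 0.12, against 0.08). The median over the 30 alternate alpha and gamma genes was -0.09. In the alpha cluster Pcdhac2 rose and Pcdha8 fell, which is 7.69% each way, beside 16.9% and 16.3% of all genes. Over nuclear protein-coding genes the shares were 20.9% and 7.34%. The other 11 alpha genes had no call. Of these, Pcdha5 and Pcdha9 were called lower under protein-coding scaling (limma adjusted p = 0.0166 and 0.0389), and Pcdha4 was called higher under cyclic loess. Pcdhac2, a C-type isoform needed for the even spacing of serotonin axons, stood at 95.9 and 109.5 CPM with the p53 activator, against 70.7 and 85.5 CPM with DMSO. Both activator libraries were above both DMSO libraries, the log2 fold change was 0.39 ± 0.08 (SE) and the adjusted p by limma was 0.000101. It was called under all 6 scalings and tests (CPM as deposited, TMM, protein-coding, cyclic loess, edgeR and DESeq2), though not without DMSO replicate 1 (log2 fold change 0.26, limma adjusted p = 0.0743) or without an expression trend in the variance (adjusted p = 0.0900). Pcdhac1, the other alpha C-type gene, stood at 6.50 and 5.42 CPM with the activator and 7.61 and 6.95 CPM with DMSO, with no call (log2 fold change -0.25).

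Pcdha8, an alternate isoform, fell to 4.62 and 3.61 CPM with the activator, against 7.47 and 6.88 CPM with DMSO. Its log2 fold change was -0.68 ± 0.17 (SE), the limma adjusted p was 0.00123, and the call held in every alternative. Pcdha5, Pcdha9 and Pcdha10 also had both activator libraries below both DMSO libraries, with log2 fold changes of -0.28, -0.25 and -0.09 and no call. Pcdha4 lay on the other side, at 2.52 and 2.14 CPM with the activator and 1.37 and 1.47 CPM with DMSO, without a call (log2 fold change 0.46 ± 0.20, limma adjusted p = 0.0727). It was called higher in 3 of the 16 settings that tested it, cyclic loess among them. Pcdha3 (17.3 and 20.9 CPM with the activator, against 15.6 and 17.4 CPM with DMSO) and Pcdha12 (15.9 and 16.8 CPM with the activator, against 14.5 and 16.9 CPM with DMSO) were among the 3 alpha genes with the most reads, and their groups overlapped. The fold change of Pcdha12 was 0.05 on the log2 scale and turned to -0.09 under protein-coding scaling. The 11 alternate alpha genes together had 5 positive and 6 negative fold changes and summed to 105 and 112 CPM with the activator and 112 and 113 CPM with DMSO.

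In the gamma cluster 2 of 22 genes rose (9.09%), both C-type, and 0 fell, beside 16.9% and 16.3% of all genes. Over nuclear protein-coding genes the shares were 20.9% and 7.34%. Under protein-coding scaling 1 gamma gene rose and 4 fell, beside 4.41% and 12.8%. Pcdhgc4, on which the survival of cortical interneurons depends in mice, stood at 45.0 and 49.8 CPM with the activator and 35.4 and 36.5 CPM with DMSO. The groups were apart, the log2 fold change was 0.39 ± 0.09 (SE) and limma's adjusted p was 0.000567, and of all alternatives only a variance without an expression trend ended the call (adjusted p = 0.0559). Pcdhgc3 stood at 95.5 and 103 CPM with the activator and 83.7 and 89.4 CPM with DMSO. Its log2 fold change of 0.20 ± 0.08 (SE) was the called one nearest the threshold (limma adjusted p = 0.0459). It was 0.05 with no call under protein-coding scaling, and the call was also lost without an expression trend in the variance. Pcdhgc5, at 21.9 and 20.4 CPM with the activator, against 18.6 and 19.6 CPM with DMSO, had groups that did not overlap and no call (log2 fold change 0.14).

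None of the 19 alternate gamma genes was called, with log2 fold changes between -0.31 and 0.27 and a median of -0.09. Under protein-coding scaling 4 of them were called lower, Pcdhga5, Pcdhga10, Pcdhga12 and Pcdhgb2 (log2 fold changes -0.38, -0.34, -0.35 and -0.45), and Pcdhgb8, which was not tested there, was called lower in edgeR. By subfamily, the 12 Pcdhga genes had 7 positive and 5 negative fold changes, and the 7 Pcdhgb genes had 0 positive and 7 negative. Pcdhgb2 was the lowest of these, at 9.28 and 12.02 CPM with the activator and 13.6 and 13.0 CPM with DMSO (log2 fold change -0.31, limma adjusted p = 0.0773). Pcdhga1 was the highest alternate gene, at 17.8 and 20.8 CPM with the activator, against 15.4 and 16.2 CPM with DMSO (0.27, limma adjusted p = 0.0747). Pcdhga8, the alternate gamma gene with the most reads, stood at 25.4 and 26.4 CPM with the activator and 26.7 and 28.7 CPM with DMSO, without a call.

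The share of a cluster's reads that falls on its C-type genes does not depend on how libraries are scaled. C-type genes took 49.5% and 50.6% of the alpha reads with the activator, against 41.2% and 45.1% with DMSO. The exact binomial 95% intervals were 47.9% to 51.0% and 49.1% to 52.2% with the activator and 39.4% to 43.1% and 43.3% to 46.9% with DMSO, on 2771 to 4023 reads per library. In the gamma cluster the shares were 33.7% and 33.6% with the activator and 28.8% and 29.8% with DMSO, on 6983 to 9188 reads, with intervals of 32.7% to 34.7% and 32.7% to 34.6% with the activator and 27.7% to 29.8% and 28.8% to 30.9% with DMSO. The groups did not overlap in either cluster. These intervals cover counting error only, and with 2 libraries per group the difference in share was not tested. The summed C-type level was 102 and 115 CPM in alpha and 162 and 174 CPM in gamma with the activator, against 78.3 and 92.5 CPM in alpha and 138 and 146 CPM in gamma with DMSO.

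**Figure D2:**
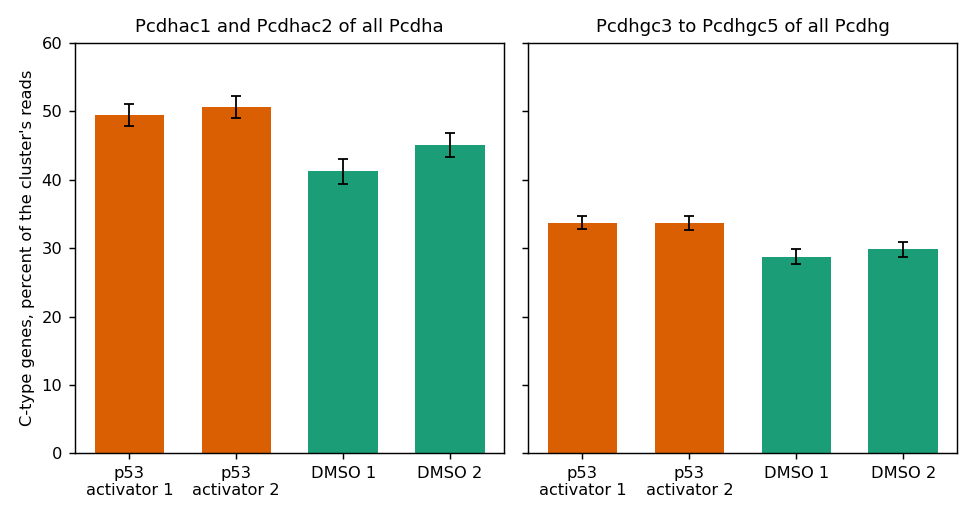
Percent of the alpha cluster's reads on Pcdhac1 and Pcdhac2 (left) and of the gamma cluster's reads on Pcdhgc3 to Pcdhgc5 (right), in each library, with exact binomial 95% intervals as error bars. The activator libraries stand at 49.5% and 50.6% in alpha and 33.7% and 33.6% in gamma, above the DMSO libraries in both.

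In the beta cluster 4 of 22 genes fell (18.2%) and 0 rose. Beside them 16.3% of all genes and 7.34% of nuclear protein-coding genes fell, and 16.9% and 20.9% rose. Under protein-coding scaling 8 fell and 0 rose, beside 12.8% and 4.41% of all genes. As deposited, 17 of the 22 had a negative fold change. Pcdhb12 stood at 11.9 and 11.4 CPM with the activator, against 15.8 and 16.9 CPM with DMSO. Pcdhb13 stood at 12.3 and 12.1 CPM with the activator, against 16.6 and 17.6 CPM with DMSO. Pcdhb15 stood at 10.1 and 10.7 CPM with the activator, against 14.3 and 14.9 CPM with DMSO. The 3 genes moved by nearly the same amount, with log2 fold changes of -0.46, -0.46 and -0.45 (SE 0.13, 0.13 and 0.14) and limma adjusted p of 0.00410, 0.00358 and 0.00605, and each was called under all 6 scalings and tests. Without DMSO replicate 2 the limma adjusted p of Pcdhb12 was 0.0504. Pcdhb10, at 17.6 and 16.8 CPM with the activator, against 22.3 and 20.4 CPM with DMSO, fell by less (log2 fold change -0.29 ± 0.12, limma adjusted p = 0.0416). Its call was lost in DESeq2 (adjusted p = 0.133) and without an expression trend in the variance. It was also lost when any 1 library was left out (log2 fold changes -0.36 to -0.23).

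These 4 genes lie within a run of 6 neighbours in the cluster, Pcdhb10 to Pcdhb15, singled out after its values were seen. Both activator libraries were below both DMSO libraries for all 6, beside 12 of the 22 beta genes and 30.9% of all genes tested. The median log2 fold change of the 6 was -0.37. As the run was singled out by its falls, its count and median are no evidence about position in the cluster. Between the called ones lay Pcdhb11, at 28.0 and 29.0 CPM with the activator, against 33.6 and 33.3 CPM with DMSO (log2 fold change -0.23, limma adjusted p = 0.0694), which was called lower under 4 of the 6 scalings and tests, and Pcdhb14, at 23.2 and 22.9 CPM with the activator, against 25.8 and 24.5 CPM with DMSO (-0.12). The other 16 beta genes had 0 calls, 5 positive and 11 negative fold changes and a median of -0.06. Among them were the 3 with the most reads: Pcdhb19 (50.9 and 51.4 CPM with the activator, against 54.4 and 53.2 CPM with DMSO), Pcdhb16 (44.6 and 40.2 CPM with the activator, against 46.4 and 44.6 CPM with DMSO) and Pcdhb18 (36.1 and 34.3 CPM with the activator, against 37.0 and 42.1 CPM with DMSO). Pcdhb16, Pcdhb18 and Pcdhb8 were called lower under protein-coding scaling (limma adjusted p = 0.0432, 0.0152 and 0.0458).

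**Figure D3:**
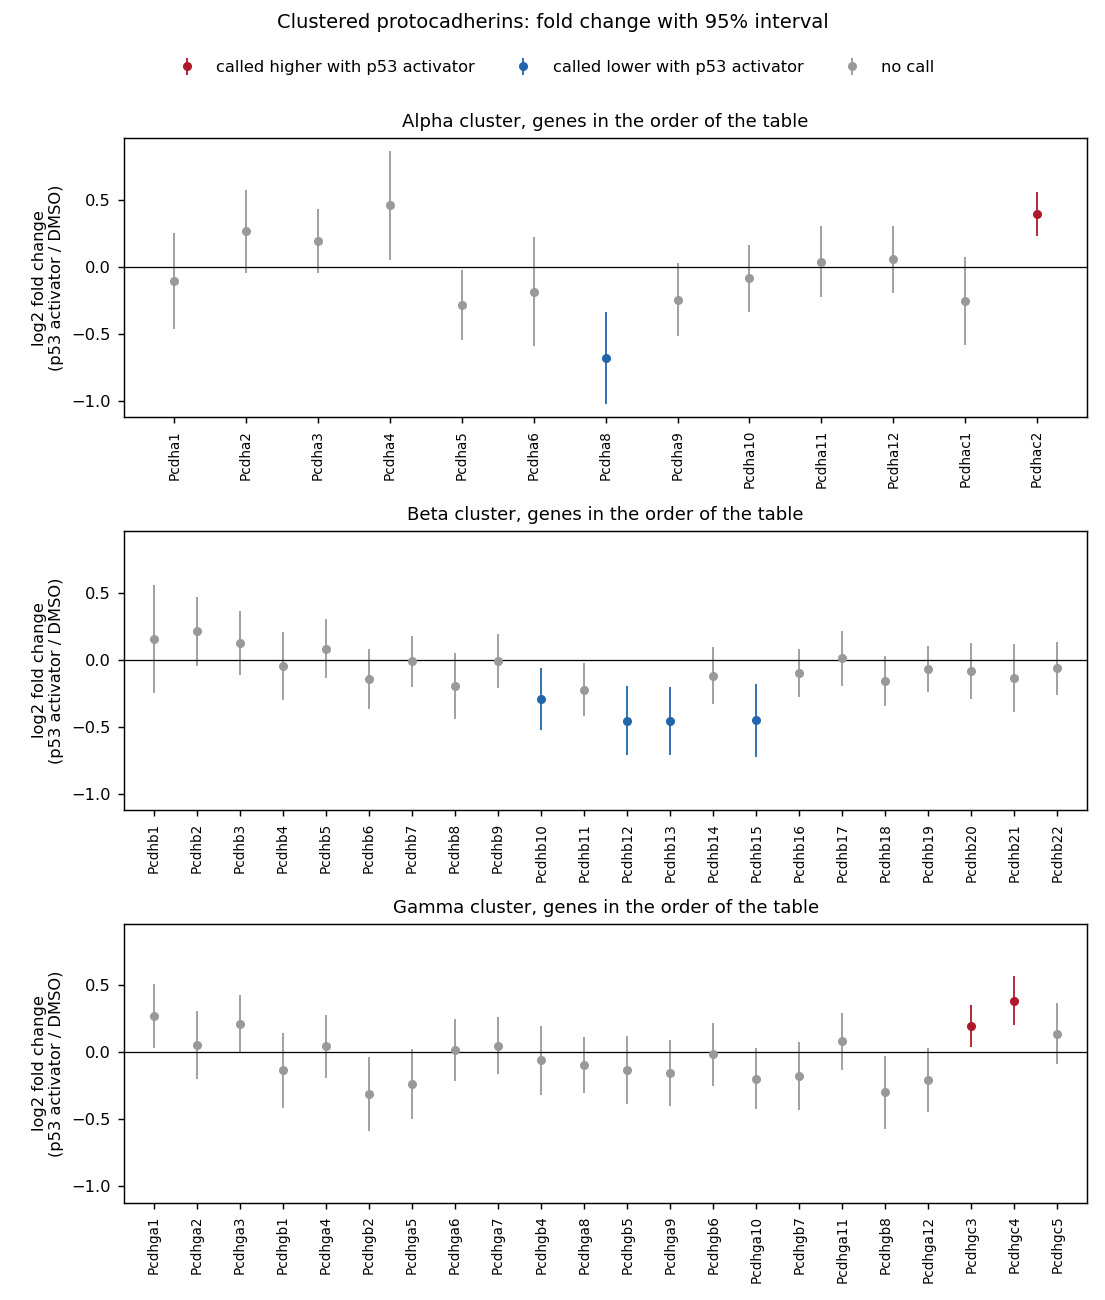
Log2 fold change of CPM + 1 (p53 activator over DMSO) with its 95% interval for each gene of the alpha, beta and gamma clusters, in the order of the table, coloured by call. Red marks Pcdhac2, Pcdhgc3 and Pcdhgc4 at the right of their clusters, and blue marks Pcdha8 and the beta genes Pcdhb10, Pcdhb12, Pcdhb13 and Pcdhb15.

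Counting limits the clustered genes in a way that differs between clusters. In GENCODE vM21 the longest transcript of an alpha gene shared a median of 60.6% of its 50-base words with transcripts of other genes. A gamma transcript shared a median of 45.1% (12 of 13 alpha and all 22 gamma genes matched). The constant exons are common to the cluster. Pcdha4, at 97.5%, and Pcdhga4, at 65.9%, were the highest of their clusters and shared more than the constant exons. Pcdha6 came next in alpha, at 68.4%. For beta genes the median was 4.46% and the highest 11.99%, for Pcdhb12. How the authors' counting assigned reads of shared exons is not given in the sources used here, so levels of single alpha and gamma isoforms are uncertain. In the 31 genes outside the clusters at most 3.23% was shared.

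Of the 11 non-clustered protocadherins 6 rose with the p53 activator and 2 fell (54.5% and 18.2%), beside 16.9% and 16.3% of all genes. Over nuclear protein-coding genes the shares were 20.9% and 7.34%. The 2 falls among the 11 were the larger changes. Pcdh9, a protocadherin of the delta-1 subfamily, stood at 1732 and 1559.5 CPM with the activator, against 2454 and 2469 CPM with DMSO. Per kilobase of exon it was also the highest of the 31 genes outside the clusters, with a level of 243 CPM per kb with the activator and 363 CPM per kb with DMSO, followed by Pcdh7 at 30.3 CPM per kb with the activator and 27.1 CPM per kb with DMSO. Its groups were far apart, at a log2 fold change of -0.58 ± 0.11 (SE) and limma adjusted p = 1.70e-05, and without p53 activator replicate 2 it was -0.51 with an adjusted p of 0.0526. Pcdh15, which builds the tip links of hair cells together with cadherin 23, stood at 43.5 and 39.1 CPM with the activator, against 69.7 and 67.0 CPM with DMSO. The groups were well apart, and the log2 fold change of -0.71 ± 0.09 (SE, limma adjusted p = 7.47e-11) was the lowest of the 88 and was called in every alternative.

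The rises were of 4 of the 5 delta-2 protocadherins, of Pcdh1 and of Pcdh20. Pcdh8, whose protein is induced by neuronal activity and draws N-cadherin into the cell, stood at 65.1 and 83.0 CPM with the activator, against 48.3 and 58.9 CPM with DMSO. Pcdh19, which binds N-cadherin and is mutated in a female-limited epilepsy of humans, stood at 166 and 188 CPM with the activator, against 126 and 136 CPM with DMSO. For both genes the groups were apart, with log2 fold changes of 0.45 ± 0.09 and 0.42 ± 0.08 (SE) and limma adjusted p of 3.29e-05 and 8.87e-06. Pcdh19 was called under all 6 scalings and tests, and Pcdh8 under all but DESeq2 (adjusted p = 0.222). Without an expression trend in the variance neither was called (limma adjusted p = 0.0536 for Pcdh19 and 0.0936 for Pcdh8).

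Pcdh17, which acts at synapses between cortex and basal ganglia, stood at 186 and 192 CPM with the activator, against 143 and 162 CPM with DMSO (log2 fold change 0.31, limma adjusted p = 0.00103). Pcdh10, which recruits the actin-regulating WAVE complex, stood at 326 and 334 CPM with the activator, against 259.5 and 297 CPM with DMSO (0.25, limma adjusted p = 0.0103). Pcdh1, a delta-1 protocadherin, stood at 163 and 204 CPM with the activator, against 139 and 159 CPM with DMSO (0.29, limma adjusted p = 0.00288). Pcdh20, named beyond the rule after its values were seen, stood at 35.9 and 38.8 CPM with the activator, against 26.7 and 31.3 CPM with DMSO (0.36, limma adjusted p = 0.00317). The groups were apart for all 4, but none was called under protein-coding scaling, where the log2 fold changes were 0.16, 0.10, 0.15 and 0.21. None was called without an expression trend in the variance or without DMSO replicate 1 either.

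No call was made for Pcdh7, Pcdh11x and Pcdh18. Pcdh7 stood at 315 and 328 CPM with the activator, against 279 and 296 CPM with DMSO, and its 95% interval ran from 0.01 to 0.32 on the log2 scale (limma adjusted p = 0.0995), while under cyclic loess the sign turned (-0.04). Pcdh11x stood at 203 and 212 CPM with the activator, against 181 and 216 CPM with DMSO, with overlapping groups. The 11 genes together summed to 3246 and 3189 CPM with the activator and 3734 and 3902 CPM with DMSO. Without Pcdh9 the order was the other way round, at 1514 and 1630 CPM with the activator and 1280.4 and 1434 CPM with DMSO.

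**Figure D4:**
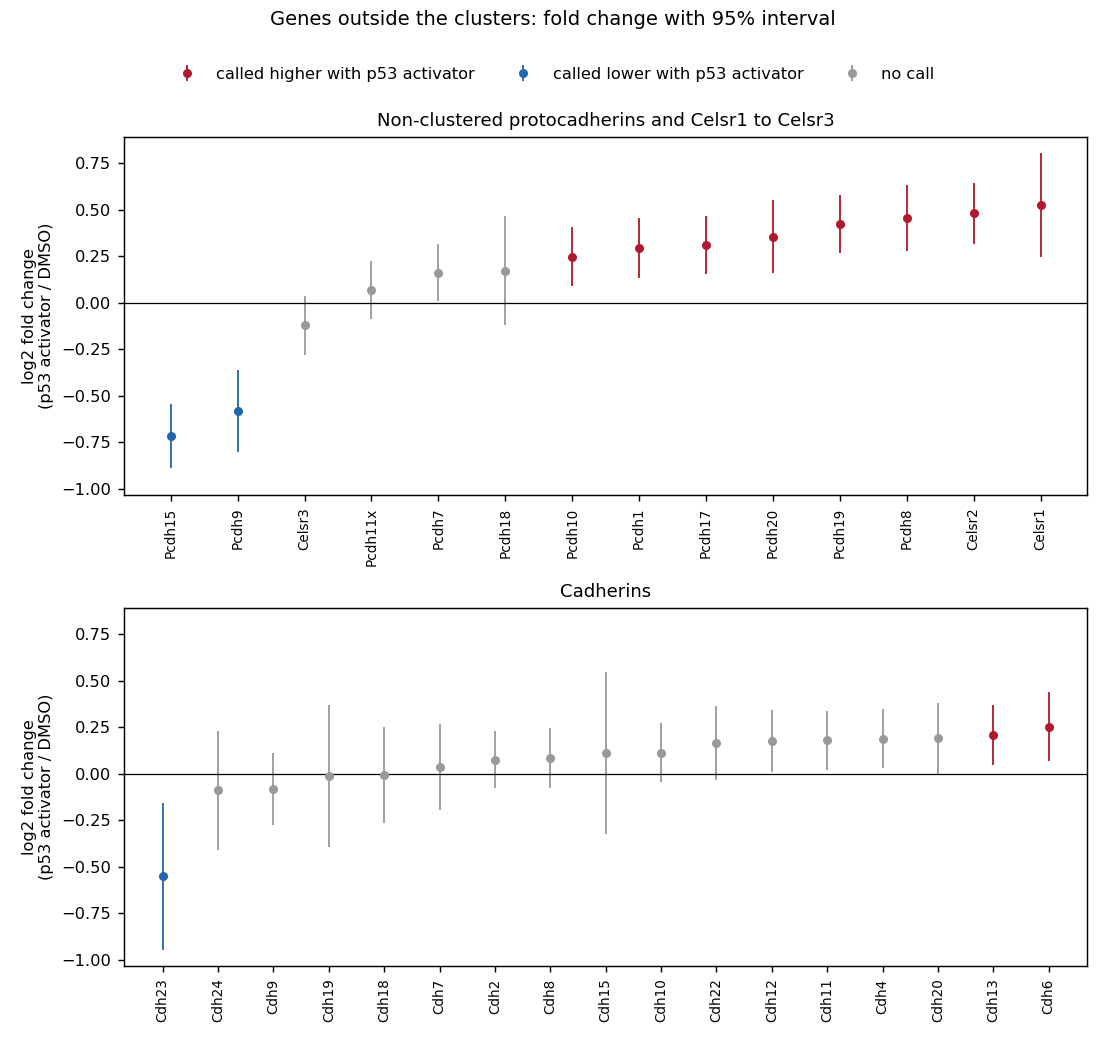
Log2 fold change of CPM + 1 (p53 activator over DMSO) with its 95% interval for the non-clustered protocadherins and Celsr genes (top) and the cadherins (bottom), ordered by fold change and coloured by call. Pcdh15 (-0.71) and Pcdh9 (-0.58) lie at the left of the upper panel, Celsr2 (0.48) and Celsr1 (0.53) at its right, and Cdh23 (-0.55) at the left of the lower panel.

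The sequence before the start site is shown for the protocadherins that fell and for those with the smallest p among the rises, because these moved in opposite directions with the same treatment. The sequences are the 250 bases upstream of a RefSeq start on GRCm38.p6, matched by symbol (1 of 2 starts for Pcdh9), while the submitters' processing notes name mm9. They are those of Pcdh15 (chr10:73821617-73821866, plus strand), Pcdh9 (chr14:93890680-93890929, minus strand), Pcdh8 (chr14:79771313-79771562, minus strand) and Pcdh19 (chrX:133688994-133689243, minus strand), each written 5′ to 3′ along the gene. Capitals mark TATAAA or GGGCGG on either strand.
Pcdh15: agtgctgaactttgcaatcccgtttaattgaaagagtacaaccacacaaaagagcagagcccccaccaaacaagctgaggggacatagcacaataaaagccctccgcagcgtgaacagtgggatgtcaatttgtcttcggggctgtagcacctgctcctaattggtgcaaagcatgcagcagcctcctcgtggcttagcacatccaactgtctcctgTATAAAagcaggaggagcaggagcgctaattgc
Pcdh9: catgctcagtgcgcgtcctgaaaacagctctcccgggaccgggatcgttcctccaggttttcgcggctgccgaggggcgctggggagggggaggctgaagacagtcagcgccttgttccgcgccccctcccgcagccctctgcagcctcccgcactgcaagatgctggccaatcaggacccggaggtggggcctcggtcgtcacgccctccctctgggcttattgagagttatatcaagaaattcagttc
Pcdh8: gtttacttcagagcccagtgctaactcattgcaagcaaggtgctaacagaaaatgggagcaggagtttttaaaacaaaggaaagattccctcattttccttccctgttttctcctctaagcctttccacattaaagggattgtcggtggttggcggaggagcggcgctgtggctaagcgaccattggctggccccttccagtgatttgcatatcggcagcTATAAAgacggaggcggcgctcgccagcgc
Pcdh19: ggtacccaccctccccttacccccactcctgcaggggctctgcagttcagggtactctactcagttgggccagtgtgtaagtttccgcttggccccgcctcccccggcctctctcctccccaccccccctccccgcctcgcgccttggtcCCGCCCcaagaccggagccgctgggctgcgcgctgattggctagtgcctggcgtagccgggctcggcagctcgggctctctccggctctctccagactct

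TATAAA begins at position -33 in Pcdh15, which fell, and at -30 in Pcdh8, which rose. GGGCGG, on the opposite strand, occurs 1 time in Pcdh19 and in none of the other 3 windows. Upstream GC content was 50.4% in Pcdh15, 63.6% in Pcdh9, 51.2% in Pcdh8 and 69.2% in Pcdh19. Promoter windows of 300 bases (250 upstream, 50 downstream) from RefSeq were at hand for 23 of the 88 genes, all outside the clusters. None of the 57 clustered genes had a window, so the shares that follow do not cover them. Among the 26 windows TATAAA was in 2 (7.69%), beside 13.6% of all 32851 windows and 8.94% of the 17514 windows of genes in the deposited table. GGGCGG was in 10 (38.5%), beside 35.7% of all windows and 53.9% of those of genes in the table, so its direction depends on the background. The p53 half-site, searched by its 10-base consensus, was in 2 (7.69%), those of Pcdh7 and Pcdh20, beside 8.36% and 7.25%. A match is only a run of letters, and both strands were searched.

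Of the 3 Celsr genes 2 rose and 0 fell, beside 16.9% and 16.3% of all genes and 20.9% and 7.34% of nuclear protein-coding genes. Celsr2, which promotes the growth of dendrites, stood at 261 and 325 CPM with the activator, against 193 and 225 CPM with DMSO. Celsr1, known for planar polarity in skin and neural tube, stood at 13.0 and 15.1 CPM with the activator, against 10.2 and 8.69 CPM with DMSO. The groups were apart for both, with log2 fold changes of 0.48 ± 0.08 and 0.53 ± 0.14 (SE) and limma adjusted p of 1.57e-06 and 0.00211. Celsr1 was called under all 6 scalings and tests but not without p53 activator replicate 2 (adjusted p = 0.0719), and Celsr2 was not called in DESeq2 (adjusted p = 0.132) or without an expression trend in the variance (limma adjusted p = 0.0702). Celsr3, which guides axon tracts of the forebrain together with Fzd3, lay the other way, at 86.0 and 96.0 CPM with the activator and 97.6 and 100.3 CPM with DMSO. It had no call (log2 fold change -0.12 ± 0.08, limma adjusted p = 0.246), while under protein-coding scaling it was called lower (-0.27, adjusted p = 0.00767).

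Of the 17 cadherins 2 rose and 1 fell with the p53 activator (11.8% and 5.88%), beside 16.9% and 16.3% of all genes. Over nuclear protein-coding genes the shares were 20.9% and 7.34%. The other 14 cadherins had no call. Cdh23, the partner of Pcdh15 in tip links, stood at 1.68 and 2.37 CPM with the activator, against 3.84 and 3.01 CPM with DMSO. The groups were apart at this low level, with a log2 fold change of -0.55 ± 0.20 (SE, limma adjusted p = 0.0238). The fall was not called in DESeq2 (adjusted p = 0.163), under cyclic loess (limma adjusted p = 0.186) or without an expression trend in the variance. Nor was it called without p53 activator replicate 1 (-0.39) or without DMSO replicate 1 (-0.42). Vsir, at a mean of 1.12 CPM, overlaps Cdh23, and the use of strand in counting is not stated, so their reads may not be told apart. Cdh6, a type II cadherin of restricted cortical areas and layers, stood at 42.1 and 41.9 CPM with the activator, against 33.7 and 36.5 CPM with DMSO (log2 fold change 0.25, limma adjusted p = 0.0284). Cdh13, a cadherin held by a lipid anchor instead of a cytoplasmic tail, stood at 310.1 and 359 CPM with the activator, against 268 and 311 CPM with DMSO, so that the groups overlapped (0.21, limma adjusted p = 0.0358), and it overlaps listed genes of up to 28.1 CPM. Neither rise was called in edgeR (adjusted p = 0.0743 for Cdh6 and 0.215 for Cdh13), without an expression trend in the variance or without DMSO replicate 1. Under protein-coding scaling neither was called (log2 fold changes 0.11 and 0.06).

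Cdh2, which encodes N-cadherin, the main classical cadherin of cortical synapses, had no call, at 189 and 206 CPM with the activator and 181 and 194 CPM with DMSO. The groups overlapped, its 95% interval ran from -0.08 to 0.23 on the log2 scale, and the fold change of 0.08 turned to -0.07 under protein-coding scaling. Cdh4, or R-cadherin, was the uncalled gene nearest the threshold, at 94.0 and 95.1 CPM with the activator and 81.7 and 84.0 CPM with DMSO (log2 fold change 0.19, limma adjusted p = 0.0582). Cdh11, a type II cadherin, stood at 104 and 106 CPM with the activator and 92.6 and 92.4 CPM with DMSO (0.18, limma adjusted p = 0.0680). The 3 type I cadherins (Cdh2, Cdh4 and Cdh15) had log2 fold changes of 0.08 to 0.19, and the 12 type II cadherins -0.09 to 0.25, with 1 call, that of Cdh6. Summed over the 17 cadherins, the level was 1150.3 and 1199 CPM with the activator and 1025 and 1099 CPM with DMSO.

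**Figure D5:**
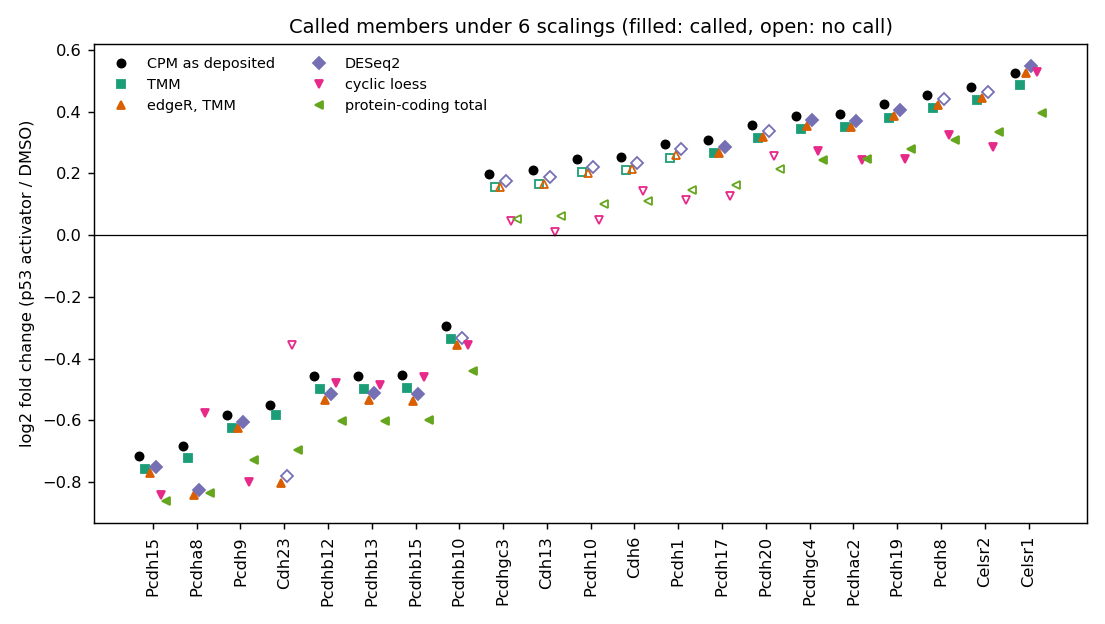
Log2 fold change (p53 activator over DMSO) of the 21 called genes under 6 scalings and tests, filled where called and open where not. The falls stay below 0 and the rises above 0 under each, and the rises of Pcdhgc3, Cdh13, Pcdh10, Cdh6 and Pcdh1 are called only as deposited.

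Under TMM alone 8 genes were called higher and 11 lower, beside 10.9% and 17.6% of all genes, under cyclic loess 7 and 10, beside 6.03% and 14.6%, and in DESeq2 5 and 6, beside 7.37% and 10.1%. Without an expression trend in the variance the counts were 2 and 6, beside 1.81% and 11.8%. They were 11 and 8 without a filter, beside 14% and 14.5%, and 13 and 7 of 82 at a minimum of 5 CPM, beside 23.8% and 14.7%. Without DMSO replicate 1 they were 5 and 6, beside 7.1% and 8.52%, and without p53 activator replicate 2 they were 6 and 7, beside 11.7% and 11%. Without p53 activator replicate 1 they were 14 and 6, beside 10.2% and 15.4%, and without DMSO replicate 2 they were 12 and 6, beside 13.2% and 13.2%.

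The genes outside the clusters also differ in genomic span, which the choice of symbols did not use. By RefSeq on GRCm38.p6, Pcdh15 spans 1554 kb and Pcdh9 879 kb, while Pcdh8 spans 4.54 kb and Pcdh20 6.65 kb. Across the 31 genes Spearman's rho between span and log2 fold change was -0.37, as a description of genes that share the same 4 libraries, beside -0.09 over 13134 nuclear protein-coding genes. Of the 6 that span over 500 kb 2 fell and 1, Cdh13, rose. Over all 207 protein-coding genes of that span 19.3% fell and 18.8% rose, beside 5.11% and 18.6% of the 2975 genes under 10 kb. Cdh12 (1150 kb), Cdh18 (929 kb) and Pcdh11x (620.4 kb) also span over 500 kb and had no call, at log2 fold changes of 0.18, -0.01 and 0.07.

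The partners of these proteins were read from lists chosen by function. Of 13 catenins and their kin 0 were called in limma. Beside these and the next list stand 16.9% of all genes and 20.9% of nuclear protein-coding genes called higher, and 16.3% and 7.34% called lower. In edgeR 0 of the 13 were called, beside 10.7% of all genes higher and 17.4% lower. Under protein-coding scaling 0 were called higher and 2 lower, beside 4.41% and 12.8%. The most abundant, Ctnnb1, which encodes beta-catenin, stood at 642 and 660.3 CPM with the activator and 583 and 611 CPM with DMSO (log2 fold change 0.13). Of 19 regulators of promoter choice in the clusters 2 rose and 2 fell, beside 16.9% and 16.3% of all genes. Under protein-coding scaling 0 rose and 5 fell, beside 4.41% and 12.8%, and Smc3, Nipbl and Pds5a were also lower. Ctcf, the factor that loops chosen promoters to their enhancer, stood at 50.9 and 48.7 CPM with the activator, against 63.2 and 54.0 CPM with DMSO, and fell (log2 fold change -0.23, limma adjusted p = 0.0376). Stag1, a cohesin subunit, stood at 60.6 and 59.6 CPM with the activator, against 76.0 and 71.8 CPM with DMSO, and fell too (-0.29, limma adjusted p = 0.00386). Both falls were also called in edgeR and under protein-coding scaling. The cohesin regulator Pds5b and the cohesin loader Mau2 rose (0.22 and 0.21), without a call in edgeR or under protein-coding scaling.

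Among 18 signalling partners of protocadherin tails 9 rose and 0 fell, against 4 and 0 under protein-coding scaling. Beside these and the next lists stand 16.9% of all genes and 20.9% of nuclear protein-coding genes called higher, and 4.41% under protein-coding scaling. Ptk2b, the kinase Pyk2 that gamma protocadherins inhibit, stood at 68.3 and 74.2 CPM with the activator, against 46.3 and 50.2 CPM with DMSO (log2 fold change 0.55, limma adjusted p = 1.50e-07). Rac1, a GTPase that turns on the WAVE complex, stood at 166 and 166 CPM with the activator, against 115 and 124 CPM with DMSO (0.47, limma adjusted p = 6.45e-07). Of 11 tested enzymes that shed or cut cadherins 4 rose and 0 fell, led by Ncstn of the gamma-secretase (0.44) and Furin, which matures cadherin precursors (0.33). Under protein-coding scaling Ncstn alone of these was called (0.30), and Furin was not (0.19). Of 12 tested planar polarity partners 2 rose and 0 fell: Prickle2 (0.32) and Fzd3 (0.28), the receptor that acts with Celsr3. Neither was called under protein-coding scaling (0.17 and 0.13), and Fzd3 was not called in edgeR either.

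Related cadherin superfamily genes outside the choice of symbols were listed too: 8 of 13 tested rose and 1 fell, against 4 and 1 under protein-coding scaling. Clstn1, a calsyntenin that links cargo to kinesin, stood at 684 and 812 CPM with the activator, against 489 and 579 CPM with DMSO (log2 fold change 0.49, limma adjusted p = 7.00e-06). Clstn3, which induces presynaptic differentiation, stood at 219.7 and 261 CPM with the activator, against 157 and 187 CPM with DMSO (0.48, limma adjusted p = 1.13e-06). Both were called in edgeR as well. The fall was that of Cdhr2, a cadherin of microvilli, at 0.525 and 0.790 CPM with the activator and 1.37 and 1.40 CPM with DMSO. It passed the filter of 1 CPM only through its 2 DMSO libraries, the group where it was high. Its fall is therefore no evidence about the list.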

How the data were processed

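Per the labels' protocols, the RNA was isolated with TRIzol and ribosomal RNA was removed. The submitters' processing notes name TopHat2, Cufflinks 2.0.0 and mm9 but not what each was used for, and they name no counting program, strand setting or annotation. The authors deposited 1 table of values read here as CPM: each column is made of whole multiples of 1 step, within 0.01 reads for 100% of values, so whole reads could be recovered. Genes were tested if 2 or more libraries reached 1 CPM (16654 of 18854). limma 3.58.1 in R 4.3.3 fitted log2(CPM + 1), which understates folds of low genes, with a variance trend, two-sided, with Benjamini-Hochberg adjustment over all genes, on 2 residual and 98.0 prior degrees of freedom. Replicates of a group differed by more than sampling noise (chi-square per degree of freedom 5.52 for the activator and 4.81 for DMSO), so none was counted as a repeat deposit.

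Alternatives were the pseudocounts 0.1 and 0.5, no filter, a minimum of 5 CPM, TMM, protein-coding and cyclic loess scaling, no trend or robust variance, a replicate block, leaving out each library, and edgeR 4.0.16 and DESeq2 1.42.0 on the recovered reads, where edgeR called 1786 genes higher and 2895 lower. Protein-coding status and spans came from RefSeq on GRCm38.p6 (all 88 symbols matched, 87 as protein-coding), and exon lengths from GENCODE vM21. Named were the 3 genes with the most reads in each set, up to 4 calls per direction with the smallest p (6 in cadherins), the genes nearest the threshold, and of each other list up to 2 calls per direction. Others were chosen after their values were seen. The members and lists were chosen with earlier results of these data known. The scripts were tested on simulated data.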

Additional observations from a re-analysis of the deposited data

How the results depend on the processing

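The count of the 88 genes called higher was 13 and moved to 8 with TMM scaling, 6 with protein-coding scaling, 7 with cyclic loess, 2 with no variance trend, 8 in edgeR and 5 in DESeq2. The count called lower was 8 and moved to 19 with protein-coding scaling. Leaving out 1 library gave 5 to 14 higher, with 5 without DMSO replicate 1 and 6 without p53 activator replicate 2, and 6 to 7 lower. The other pseudocounts and filters, robust variance and the replicate block left both counts within 1.5 times. For single named genes, 411 values kept direction and call, 71 lost the call, 8 gained one and 5 turned sign, all in genes with no call: Pcdha12 (0.05 as deposited, -0.0850 with protein-coding scaling, -0.0475 without DMSO replicate 1 and 0.157 without DMSO replicate 2), Pcdh7 (-0.0390 with cyclic loess) and Cdh2 (-0.0719 with protein-coding scaling, -0.113 with cyclic loess). The cause of these changes was not tested. With the replicate block 19 genes were higher and 12 lower, beside 22.2% and 18.8% of all genes. The median SE was 0.114 with the block and 0.129 without it. Same-numbered libraries deviated together with a correlation of 0.12 across genes. With only 2 pairs, this cannot show whether they share a culture or a batch. Of the calls, 4 held in every alternative, all lower: Pcdha8, Pcdhb13, Pcdhb15 and Pcdh15. With 2 libraries per group and a median SE of 0.13 on the log2 scale, a missing call does not show equal levels.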
